A study of Mus musculus with 6 samples.

Results

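The genes described here code for the factors that start and lengthen protein chains on the ribosome, the translation initiation factors (eIF) and elongation factors (eEF). They were taken by symbol, as every gene of the deposited table whose name begins with Eif1 to Eif6 or with Eef1 or Eef2, which gave 67 of 23420 genes. Of these, 64 had enough counts to be among the 14340 genes tested. The name rule also took in genes that act beside translation initiation: the 4 kinases of eIF2 alpha, the proteins that bind eIF4E, and Eif2c1 to Eif2c4, which are older symbols of the Argonaute genes Ago1 to Ago4 of small-RNA silencing. The Argonautes are not initiation factors and are described apart, but all 4 stay in the counts over the 67 and the 64 genes.

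RNA was sequenced from mouse embryonic stem (ES) cells, pluripotent cells of the early embryo, that were grown in self-renewing conditions. All 6 libraries came from cells with a stably integrated lentivirus. In 3 of them (replicates 1, 2 and 3) it coded for wild-type KBP, a partner protein of kinesin motors, and in the other 3 (replicates 4, 5 and 6) for KBP(KK/RR), a mutant that the labels call stable. Cells without a virus were not part of the comparison, so it sets the mutant against added wild-type protein. The labels do not say that the replicates were separate transductions or cultures, so p-values measure the spread between these samples, which may be technical.

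Translation of most messages starts when eIF4E binds the cap, the helicase eIF4A with its scaffold eIF4G opens the leader, and a small ribosomal subunit that carries eIF1, eIF1A, eIF3, eIF5 and the eIF2 complex with initiator tRNA scans to the start codon. After joining of the large subunit, driven by eIF5B, eEF1A delivers each aminoacyl-tRNA and eEF2 moves the ribosome along by a codon. Cells regulate both ends: kinases of eIF2 alpha block the exchange factor eIF2B, unphosphorylated 4E-binding proteins hold eIF4E back, and a kinase of eEF2 slows elongation. Many genes of ribosomal proteins and translation factors begin with a C followed by a run of pyrimidines, the start of messages that the mTORC1 kinase controls, and E-boxes (CACGTG) are bound by basic helix-loop-helix factors such as Myc.

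Promoter windows are shown for 7 genes. The first are the most abundant member (Eef1a1) and its partner gene with the highest log2 fold change (Eef1a2). Then come the members with the smallest p (Eif2s3y and Eif3f) and Eif2s3x, the X-linked partner of Eif2s3y. Eif3k and Eef2 were added from the members with an E-box, of which Eif4a1 and Eif5a were more abundant. Sequences are RefSeq's on GRCm38.p6, from 100 bases before to 20 bases after the annotated start, written 5′ to 3′ on the gene's strand. Capitals mark an E-box (CACGTG, which reads the same on both strands) or an annotated start that is C followed by 4 bases that are each C or T, on the gene's strand.
Eef1a1: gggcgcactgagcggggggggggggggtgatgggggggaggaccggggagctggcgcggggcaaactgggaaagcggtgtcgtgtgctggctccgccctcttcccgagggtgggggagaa
Eef1a2: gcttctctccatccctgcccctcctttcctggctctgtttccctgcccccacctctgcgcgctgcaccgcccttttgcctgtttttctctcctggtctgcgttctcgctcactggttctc
Eif2s3x: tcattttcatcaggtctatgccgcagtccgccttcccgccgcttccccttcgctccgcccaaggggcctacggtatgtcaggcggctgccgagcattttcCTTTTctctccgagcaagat
Eif2s3y: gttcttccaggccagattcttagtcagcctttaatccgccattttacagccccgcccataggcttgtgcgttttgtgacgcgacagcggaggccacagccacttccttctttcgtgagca
Eif3f: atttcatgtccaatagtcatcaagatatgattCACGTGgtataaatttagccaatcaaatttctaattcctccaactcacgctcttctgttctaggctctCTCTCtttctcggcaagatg
Eif3k: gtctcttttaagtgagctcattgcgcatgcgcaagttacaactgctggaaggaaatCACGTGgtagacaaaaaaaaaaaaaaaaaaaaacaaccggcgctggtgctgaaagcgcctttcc
Eef2: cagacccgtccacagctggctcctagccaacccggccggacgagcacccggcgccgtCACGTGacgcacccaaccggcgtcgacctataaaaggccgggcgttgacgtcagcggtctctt
These windows lie at chr9:78481705-78481824, minus strand (Eef1a1), chr2:181156996-181157115, minus strand (Eef1a2), chrX:94212632-94212751, minus strand (Eif2s3x), chrY:1010495-1010614, plus strand (Eif2s3y), chr7:108934315-108934434, plus strand (Eif3f), chr7:28981869-28981988, minus strand (Eif3k) and chr10:81176531-81176650, plus strand (Eef2). The window of Eif3f held both features, a pyrimidine start and an E-box at position -68 from the start. The E-box stood at position -44 in Eif3k and at position -43 in Eef2, and Eif2s3x had a pyrimidine start. The annotated start of its Y-linked partner is an A, and a run of C and T begins at the next base. The difference between these partners thus rests on where the start is annotated.

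Among the 52 members with a RefSeq promoter, 12 (23.1%) held an E-box within the 300 bases searched around a start, from 250 before to 50 after it. The same was true of 9.18% of the 17358 genes of the table with such a promoter and of 8.09% of all 27025 RefSeq promoter genes. Besides Eif3f, Eif3k and Eef2 they were Eef2k, Eif1b, Eif3a, Eif4a1, Eif4e, Eif4g1, Eif4h, Eif5a and Eif5a2. A pyrimidine start at the annotated base was found in 2 members, Eif2s3x and Eif3f (3.85%), against 2.82% of the table's genes. Only runs that begin exactly at the annotated base were counted, so a run beside it was missed, as in Eif2s3y. The search therefore does not show that the other members lack such a start. Genes with several annotated starts had more windows to match, 6 for Eif5a, and a match is a description of letters and not a binding site. The 12 members with an E-box had a median log2 fold change of 0.06 (9 above 0) and a median level of 163 CPM per kilobase of transcript (CPM being counts scaled to the library total). The 39 tested members with a promoter but no E-box had 0.04 (27 above 0) and 54.9.

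The 6 libraries held between 24131743 and 32160411 counts. Levels in CPM rest on library totals after TMM scaling and are shares of the RNA sequenced, so fewer cells with a message and less of it per cell cannot be told apart. ES cell markers summed to between 5596 and 5682 CPM with wild-type KBP and between 5529.9 and 5784 CPM with KBP(KK/RR), with 1 of 10 lower. Markers of fibroblasts or feeders summed to at most 28.1 CPM, of trophectoderm to at most 12.4 CPM and of neural cells to at most 182 CPM, with 0 called among those tested. Primitive endoderm markers summed to between 11.3 and 12.9 CPM with wild-type KBP and between 8.82 and 10.7 CPM with KBP(KK/RR), with 1 of 5 tested lower. No marker was at 0 in all 6 libraries, and the part of these cells in the results was not tested. The counts of the KBP gene, 2510003E04Rik in the table, rose: they stood at 48.3, 47.0 and 49.6 CPM with wild-type KBP and 56.3, 59.6 and 53.9 CPM with KBP(KK/RR) (log2 fold change 0.23, SE 0.05, edgeR adjusted p = 0.0133). Reads from the viral KBP sequence and from the cell's own gene cannot be told apart in these counts. Leaving out KBP(KK/RR) replicate 5 (adjusted p = 0.0735) ended the call, as did leaving out wild-type KBP replicate 2 (0.0908).

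No translation factor passed the threshold. With a call defined as an edgeR quasi-likelihood adjusted p under 0.05, 0 of 64 tested members were called in either direction, where 3.12% of all tested genes were. Upper-quartile scaling gave 3 calls, all higher, and dropping the filter on low counts gave 3 higher and 1 lower. Over all genes these settings gave 440 and 966 calls. DESeq2 called 0 of the 61 members to which it gave an adjusted p, and 307 genes in all. Log2 fold changes, taken as KBP(KK/RR) minus wild-type KBP, ran from -0.35 to 0.74. The 95% interval lay within a 1.2-fold change in either direction for 55 of the 64 members (8027 of 14340 genes, not matched in level). The other 9 were Eif1b, Eif2s3y, Eif2ak2, Eif4e3, Eif4ebp3, Eef1a2, Eif2c2, Eif2c3 and Eif2c4, for which a larger change was not excluded at this depth and replication.

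Small positive values prevailed. Of the 64 members, 46 (71.9%) had a log2 fold change above 0, against 7058 of 14340 genes (49.2%), and the members' median was 0.05 against -0.0022 for all genes. Before adjustment, p was under 0.05 for 17 members, against 18.6% of all genes: 13 were higher, where 8.32% of all genes were, and 4 were lower, where 10.3% of all genes were. The 3 libraries of one group all lay beyond the 3 of the other for 22 of 64 members (34.4%), against 22.4% of all genes. Of these, 18 (28.1%) were higher with KBP(KK/RR), against 11.8% of all genes, and 4 (6.25%) were lower, against 10.5%. The median level was 209 CPM for the members and 22.1 CPM for all tested genes. The shares of all genes are thus not matched to the members in level. Without wild-type KBP replicate 2 the members with an unadjusted p under 0.05 numbered 8, and without KBP(KK/RR) replicate 6 they numbered 9, with a median log2 fold change of 0.03. Calls over all genes numbered 174 and 122 in these runs. The share of all genes with an unadjusted p under 0.05 is not given for them.

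**Figure D1:**
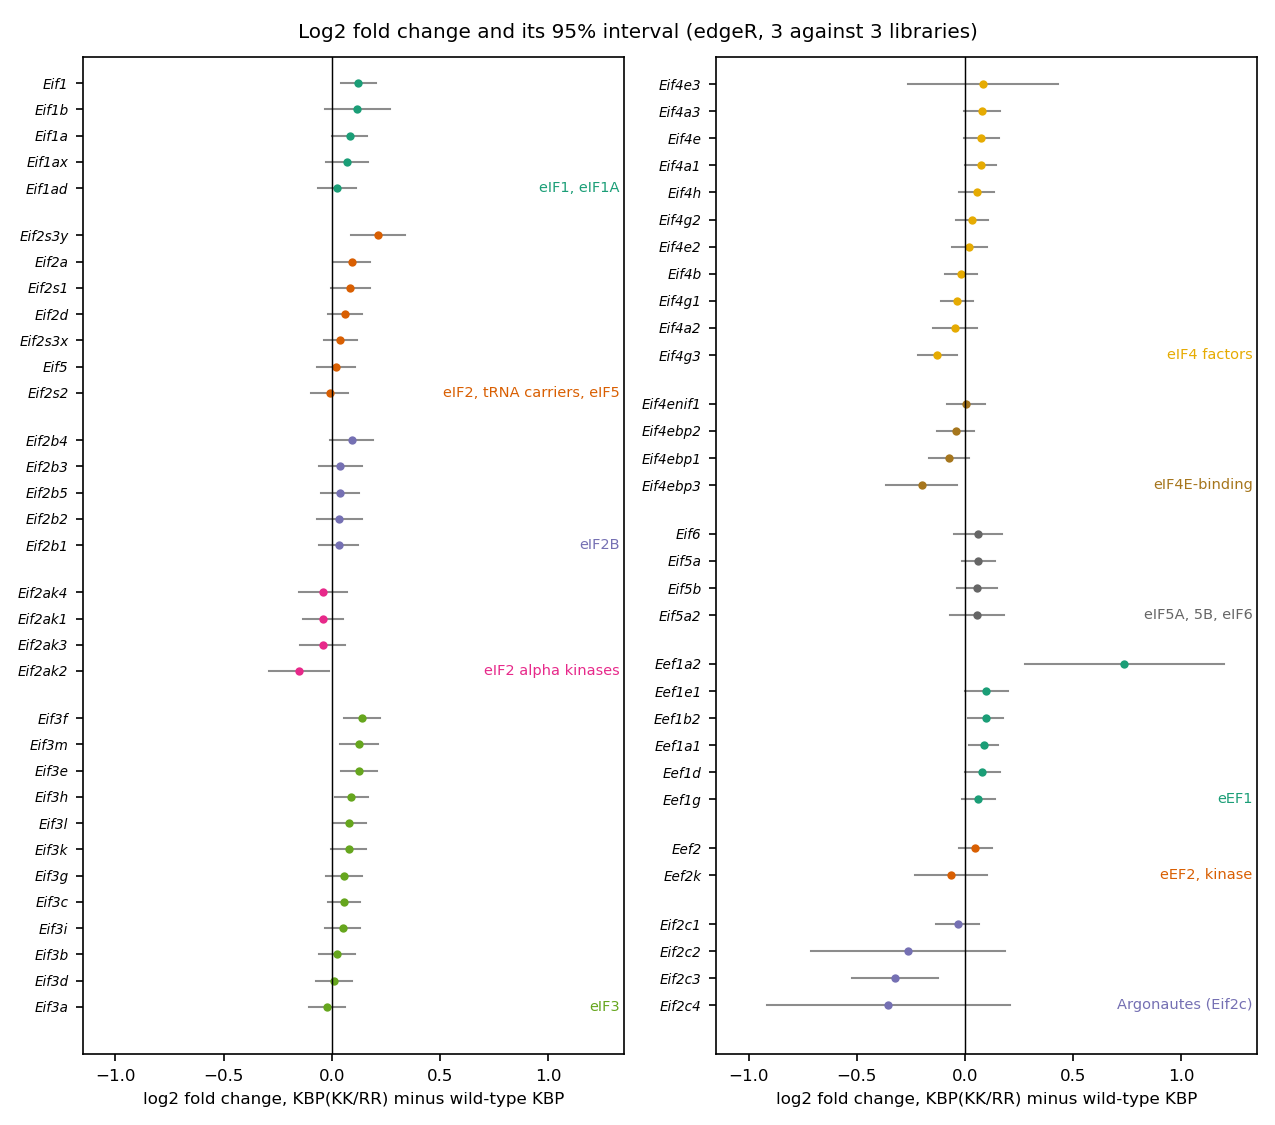
Log2 fold change (x axis, KBP(KK/RR) minus wild-type KBP) of the 64 tested genes, sorted by role (rows), with points for the edgeR estimate and bars for its 95% interval from 3 against 3 libraries. Most points lie within a narrow band just above 0, and the wide bars belong to genes of low count such as Eef1a2, Eif2c4 and Eif4e3.

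As a share of all counts in a library, the 67 genes together held 3.47 ± 0.0350% with wild-type KBP and 3.61 ± 0.0394% with KBP(KK/RR) (mean ± SD, n = 3). The libraries ran from 3.43 to 3.50% and from 3.57 to 3.65%, so the groups did not overlap. The 95% Wilson interval of each library's share was at most 0.0148 percentage points wide, which covers counting error only. Eef1a1 alone held 0.939 ± 0.0144% and 0.9996 ± 0.0109% of counts and was the gene with the most counts in every library.

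**Figure D2:**
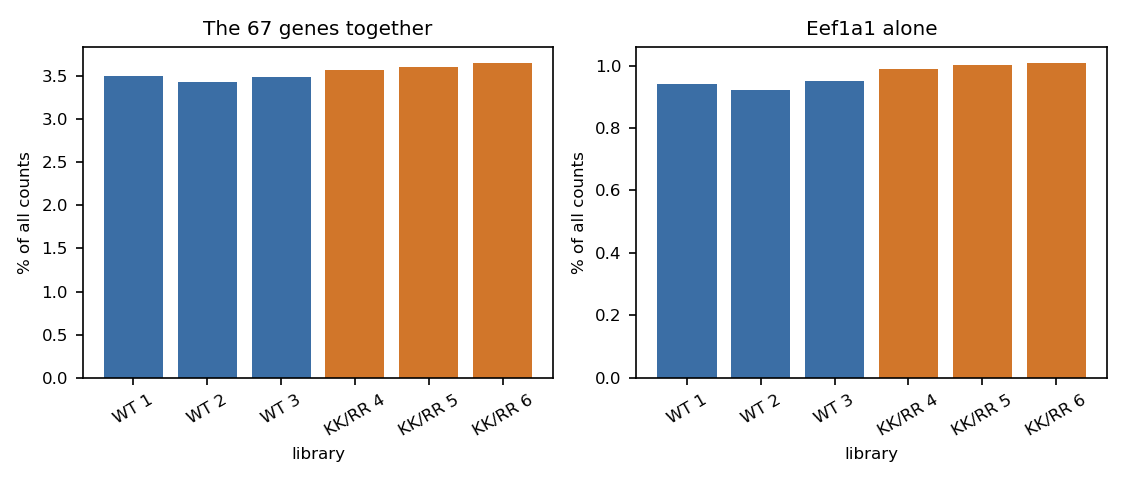
Share of all counts (y axis, %) held by the 67 genes together and by Eef1a1 alone, 1 bar per library, from 0. The wild-type KBP libraries run from 3.43 to 3.50% and the KBP(KK/RR) libraries from 3.57 to 3.65% in the left panel.

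Levels of different members are compared per kilobase of the longest annotated transcript. Eef1a1 stood first at 5405 CPM per kilobase, followed by the helicase gene Eif4a1 (1416), Eif5a (1272), Eef2 (956) and Eef1g (801). The 12 measured eIF3 genes lay within a narrow range of 95.9 to 329. At the low end were Eif2c4 (0.127), Eef1a2 (0.574), Eif2c3 (0.634) and the cap-binding gene Eif4e3 (0.723). Eif3j1 and Eif3j2, 2 genes for the loosely bound eIF3 subunit j, had 0 counts in all 6 libraries, where 3 counts would be 0.0933 to 0.124 CPM. Of the 50-base words of Eif3j2, 90.8% also occur in Eif3j1, while 39.4% of those of Eif3j1 occur in Eif3j2. Most words of Eif3j1 are thus not shared with Eif3j2. How reads shared by copies were counted is not known, and the cause of the 0 counts in either gene was not tested. Eif4e1b, an eIF4E relative, had between 0 and 3 counts and was not tested.

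**Figure D3:**
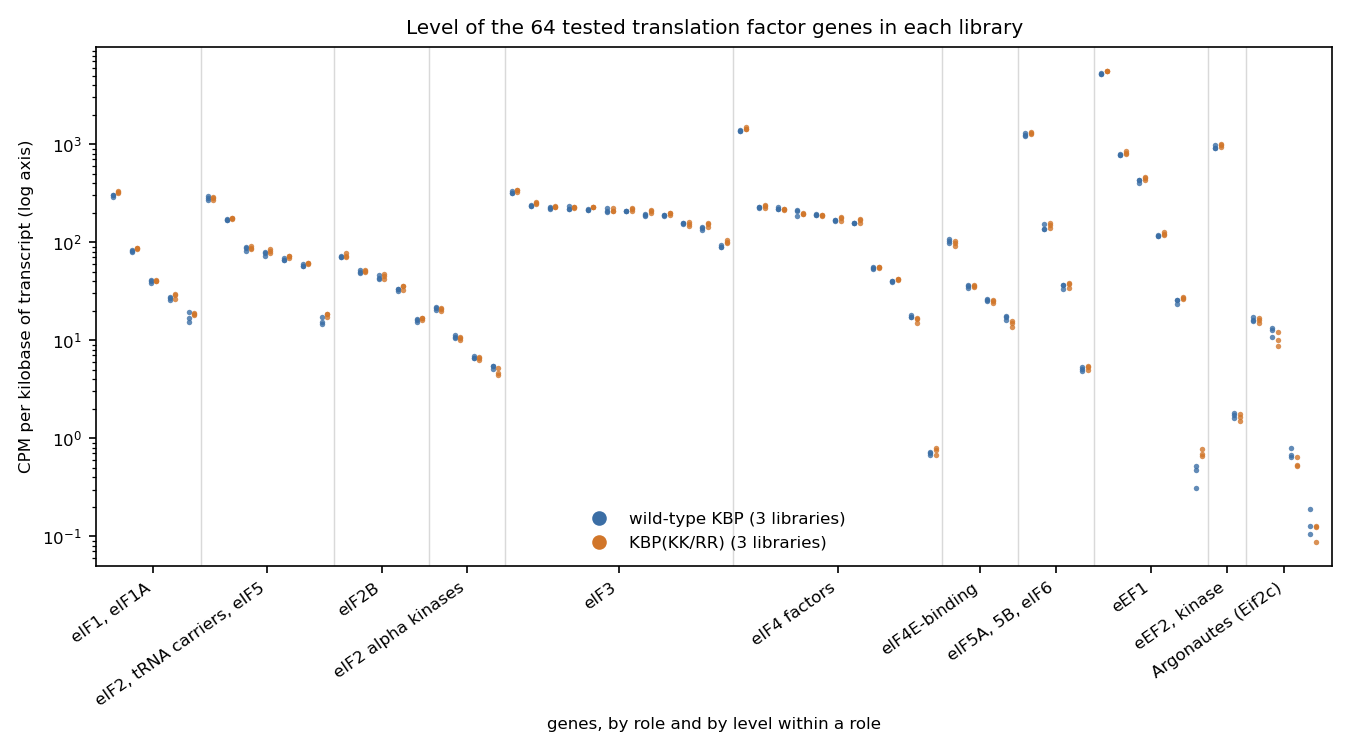
Level (y axis, CPM per kilobase of transcript, log axis) of the 64 tested genes, arranged along the x axis by role and by level within a role, with 1 point for each of 3 wild-type KBP and 3 KBP(KK/RR) libraries. Points of the groups nearly coincide for most genes, levels run from a mean of 5405 for Eef1a1 to 0.127 for Eif2c4, and the eIF3 genes lie between 95.9 and 329.

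The scanning factors of the eIF1 and eIF1A families all had positive log2 fold changes, 5 of 5 (49.2% of all genes), with a median of 0.08. Groups did not overlap for 2 of them, both higher, as were 11.8% of all genes. Eif1, which guards the choice of start codon, measured 402, 403 and 386 CPM in libraries with wild-type KBP and 431, 421 and 444 CPM in those with KBP(KK/RR) (log2 fold change 0.12, SE 0.04, edgeR adjusted p = 0.0813). Every KBP(KK/RR) library exceeded every wild-type KBP library for Eif1. Eif1a, one of the genes for eIF1A, also had groups apart, at 240.3, 234 and 229 CPM with wild-type KBP and 252, 243 and 251 CPM with KBP(KK/RR) (log2 fold change 0.08, SE 0.04, edgeR adjusted p = 0.255). Eif1b, a close relative of Eif1, measured 16.0, 17.3 and 19.8 CPM with wild-type KBP and 19.0, 18.8 and 19.8 CPM with KBP(KK/RR), with wild-type KBP replicate 3 above all other libraries (log2 fold change 0.12, SE 0.07). Leaving out wild-type KBP replicate 1 gave 0.05 for Eif1b, and leaving out replicate 3 gave 0.20.

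Among the 7 genes for eIF2, its relatives and eIF5, the log2 fold change was above 0 for 6 (49.2% of all genes). Their median was 0.06. Eif2s3y, the Y-linked gene for the gamma subunit of eIF2 (GRCm38, chrY:1010543-1028847), had the smallest p of all members. It measured 28.3, 31.4 and 26.9 CPM in libraries with wild-type KBP and 34.3, 32.05 and 34.3 CPM in those with KBP(KK/RR) (log2 fold change 0.21, SE 0.06, edgeR adjusted p = 0.0540). The KBP(KK/RR) libraries lay above those of wild-type KBP, by a small gap between wild-type KBP replicate 2 and KBP(KK/RR) replicate 5. Without wild-type KBP replicate 2 it passed the threshold (log2 fold change 0.29, edgeR adjusted p = 0.0268), as it also did with other scalings given in the closing section. Without any other single library its adjusted p lay between 0.0662 and 0.223, the latter without KBP(KK/RR) replicate 6.

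Its X-linked partner Eif2s3x (chrX:94188707-94212862) is transcribed at a higher level, 172 against 17.0 CPM per kilobase, and had overlapping groups (log2 fold change 0.04, SE 0.04, edgeR adjusted p = 0.593). As a share of the level of Eif2s3x per length, Eif2s3y stood at 8.98, 10.2 and 8.61% with wild-type KBP and 10.6, 10.2 and 10.6% with KBP(KK/RR). The genes share no 50-base word with each other, but 36.2% of those of Eif2s3x also occur in other annotated genes, most of all in Gm2223, so these shares depend on how such reads were counted. Other Y-linked genes were looked at after these values were seen: Ddx3y (log2 fold change 0.16, edgeR adjusted p = 0.228) and Uty (0.14, 0.370) had overlapping and separate groups respectively, and neither was called. Kdm5d, Usp9y, Zfy1, Zfy2 and Sry had at most 8 counts in a library and were not tested.

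The alpha subunit gene Eif2s1 measured 273, 265 and 247 CPM with wild-type KBP and 291, 267 and 275 CPM with KBP(KK/RR) (log2 fold change 0.08), and the beta subunit gene Eif2s2 had -0.0090, with overlapping groups in both. Eif2a and Eif2d, which code for alternative carriers of initiator tRNA, had 0.09 and 0.06, and Eif5, the activator of the eIF2 GTPase, had 0.02. Of these, the groups did not overlap for Eif2d. The 5 genes for eIF2B, which reloads eIF2 with GTP, were all slightly positive, from 0.03 to 0.09 for the delta subunit gene Eif2b4, and all 5 had overlapping groups.

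The kinases of eIF2 alpha went the other way in sign: 4 of 4 had a negative log2 fold change, with a median of -0.04, and all 4 had overlapping groups. Their transcripts are 4313 to 5298 bases long. Of 4801 tested genes over 4000 bases, 1709 had a log2 fold change above 0, and the median was also -0.04. With a smooth trend of counts on transcript length and GC taken out, the kinases' median stayed at -0.04. Eif2ak2, the double-stranded RNA sensor PKR, measured 23.3, 23.3 and 22.0 CPM in libraries with wild-type KBP and 22.5, 20.1 and 19.2 CPM in those with KBP(KK/RR) (log2 fold change -0.15, SE 0.07, edgeR adjusted p = 0.226). The heme-regulated Eif2ak1, the endoplasmic reticulum kinase PERK (Eif2ak3) and the amino acid sensor GCN2 (Eif2ak4) each had a log2 fold change of -0.04.

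The eIF3 complex, the scaffold of the small subunit, was positive in 11 of 12 measured genes (49.2% of all genes), with a median log2 fold change of 0.07. The median transcript length of these genes was 1702.5 bases, and with the length and GC trend removed their median was 0.04. Groups did not overlap for 6 of the 12, all higher with KBP(KK/RR), as were 11.8% of all genes. Eif3f (chr7:108934417-108942951), whose promoter window is shown above, measured 238, 223 and 227 CPM in libraries with wild-type KBP and 246, 249.8 and 263 CPM in those with KBP(KK/RR) (log2 fold change 0.14, SE 0.04, edgeR adjusted p = 0.0611). The lowest KBP(KK/RR) library, replicate 4, lay above the highest wild-type KBP library. Without KBP(KK/RR) replicate 4 Eif3f passed the threshold (log2 fold change 0.16, edgeR adjusted p = 0.0263), and without any other single library its adjusted p lay between 0.0533 and 0.308. Eif3f also passed with the length and GC trend removed, at a log2 fold change of 0.12 (edgeR adjusted p = 0.0246).

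Eif3e, another subunit of the complex's core, measured 293, 285 and 279 CPM with wild-type KBP and 323, 298 and 314 CPM with KBP(KK/RR) (log2 fold change 0.12, SE 0.04, edgeR adjusted p = 0.0925). Eif3m measured 183, 179 and 169 CPM with wild-type KBP and 195, 185 and 199 CPM with KBP(KK/RR) (log2 fold change 0.13, SE 0.04, edgeR adjusted p = 0.110). In both genes the groups did not overlap. With the length and GC trend removed, Eif3e and Eif3m each had a log2 fold change of 0.06. Eif3c, Eif3h and Eif3l also had groups apart, with log2 fold changes of 0.06, 0.09 and 0.08, while those of Eif3k (0.08) overlapped. The largest subunit, Eif3a, was the only one of the 12 with a negative value, -0.02.

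Subunits a, c, e, f, h, k, l and m form an octamer of PCI and MPN domain proteins, and b, d, g and i bind around it. Split in this way, a grouping chosen after the values were seen, the 8 octamer genes had a median of 0.09 and 6 had groups apart (11.8% of all genes, higher). The 4 others had a median of 0.04 and 0 had groups apart. Median levels of the sets were 210.03 and 213 CPM per kilobase, and median transcript lengths were 1724 and 1511 bases. With the length and GC trend removed the medians of the sets were 0.04 and 0.02. The difference between the sets was not tested, and as the split followed the values it is a description only.

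**Figure D4:**
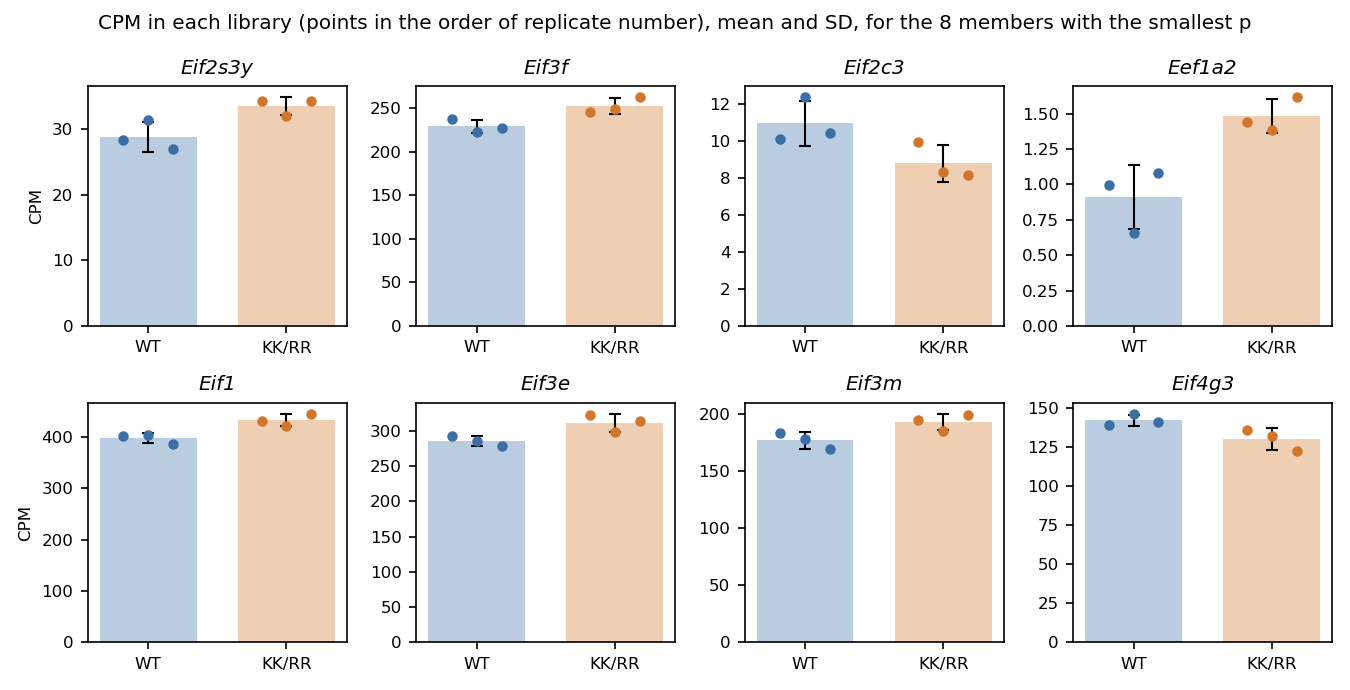
CPM (y axis of each panel, from 0) of the 8 members with the smallest p, with a point for each library in the order of replicate number, a bar for the mean and an error bar for the SD of 3 libraries (wild-type KBP, WT, and KBP(KK/RR), KK/RR, along the x axis). The KBP(KK/RR) points lie above those of wild-type KBP for Eif2s3y, Eif3f, Eef1a2, Eif1, Eif3e and Eif3m and below them for Eif2c3 and Eif4g3.

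Cap-binding and helicase genes were mixed, with 7 of 11 positive and a median of 0.03. Eif4a1, the main helicase gene, measured 2489.8, 2415 and 2440.5 CPM in libraries with wild-type KBP and 2550.2, 2547 and 2625 CPM in those with KBP(KK/RR) (log2 fold change 0.07, SE 0.03, edgeR adjusted p = 0.255), and the groups did not overlap. Eif4a2, its second form, and Eif4a3, a helicase of the exon junction complex, had log2 fold changes of -0.05 and 0.08. The cap-binding gene Eif4e measured 199.7, 199 and 194 CPM with wild-type KBP and 210.3, 204 and 209 CPM with KBP(KK/RR) (log2 fold change 0.08, edgeR adjusted p = 0.294), again with groups apart.

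The scaffold gene Eif4g1 measured 1234, 1239 and 1290.4 CPM with wild-type KBP and 1229.8, 1206 and 1229 CPM with KBP(KK/RR) (log2 fold change -0.04). Eif4g3, a second scaffold with a transcript of 8134 bases, measured 139, 146 and 141 CPM with wild-type KBP and 136, 132 and 123 CPM with KBP(KK/RR) (log2 fold change -0.13, SE 0.04, edgeR adjusted p = 0.119). Both were lower in every KBP(KK/RR) library. Without KBP(KK/RR) replicate 4 Eif4g3 passed the threshold (log2 fold change -0.16, edgeR adjusted p = 0.0359), and without any other single library its adjusted p lay between 0.142 and 0.471. With the length and GC trend removed its value was -0.04. Eif4g2, a scaffold that does not bind eIF4E, and the helicase helpers Eif4b and Eif4h had 0.03, -0.02 and 0.05, with overlapping groups.

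Of the proteins that hold eIF4E back, Eif4ebp1 and Eif4ebp2 had log2 fold changes of -0.07 and -0.04, and the eIF4E transporter Eif4enif1 had 0.0037. Eif4ebp3 measured 11.9, 12.9 and 13.1 CPM in libraries with wild-type KBP and 11.8, 10.1 and 11.1 CPM in those with KBP(KK/RR) (log2 fold change -0.20, SE 0.08, edgeR adjusted p = 0.175). Its groups did not overlap. Exons of Eif4ebp3 are shared with transcripts that read through from its neighbour Ankhd1, so the counts of these genes may not be separate. Ankhd1 itself had overlapping groups (log2 fold change -0.19, edgeR adjusted p = 0.391).

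Eif5a, whose hypusine-bearing protein eases peptide bond formation, measured 1765, 1738 and 1867 CPM with wild-type KBP and 1816, 1879.9 and 1905 CPM with KBP(KK/RR) (log2 fold change 0.06). Its second form Eif5a2, the subunit-joining factor Eif5b and the large-subunit factor Eif6 had 0.05, 0.05 and 0.06. All 4 had overlapping groups.

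The eEF1 genes were all positive, 6 of 6, with a median of 0.09, against 49.2% of all genes above 0. Groups did not overlap for 5 of them, all higher, as were 11.8% of all genes. With the length and GC trend removed the median of the eEF1 genes was 0.06. Eef1a1, which codes for the carrier of aminoacyl-tRNA (chr9:78478449-78489151), measured 9399, 9248 and 9572 CPM in libraries with wild-type KBP and 9911, 9944 and 10100.4 CPM in those with KBP(KK/RR) (log2 fold change 0.09, SE 0.03, edgeR adjusted p = 0.141). Its lowest KBP(KK/RR) library stood above its highest wild-type KBP library. Of the 50-base words of the Eef1a1 transcript, 56.5% also occur in other annotated genes, most of all in Gm13456, so its count depends on how shared reads were treated.

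The exchange factor genes of the complex gave the same sign. Eef1b2 measured 829, 827 and 774 CPM with wild-type KBP and 869, 830.04 and 897 CPM with KBP(KK/RR) (log2 fold change 0.10, SE 0.04, edgeR adjusted p = 0.194). Eef1d and Eef1e1, the latter a part of the tRNA synthetase complex, had log2 fold changes of 0.08 and 0.10 with groups apart, and Eef1g had 0.06 with overlapping groups.

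Eef1a2 (chr2:181147653-181157014), the form of muscle and neurons, had the highest log2 fold change of all members at a very low level. It measured 0.995, 0.654 and 1.08 CPM in libraries with wild-type KBP and 1.45, 1.39 and 1.62 CPM in those with KBP(KK/RR) (log2 fold change 0.74, SE 0.22, edgeR adjusted p = 0.0713). These levels stand for 26, 21 and 26 counts with wild-type KBP and for 43, 34 and 48 counts with KBP(KK/RR). The groups did not overlap. As a share of Eef1a1 per length, Eef1a2 stood at 0.00911, 0.00609 and 0.00975% with wild-type KBP and 0.0126, 0.0120 and 0.0138% with KBP(KK/RR), and the genes share no 50-base word. With the length and GC trend removed Eef1a2 passed the threshold (log2 fold change 0.79, edgeR adjusted p = 0.0313). Without wild-type KBP replicate 2 its log2 fold change was 0.52 (adjusted p = 0.354), and without KBP(KK/RR) replicate 6 it was 0.67 (0.270).

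Eef2, the translocase gene, measured 2847, 2836 and 3029.6 CPM with wild-type KBP and 2891, 3047 and 3065 CPM with KBP(KK/RR) (log2 fold change 0.05), and its kinase gene Eef2k had -0.06. Both had overlapping groups. Eef2k ran from -0.11 without KBP(KK/RR) replicate 5 to -0.0069 without KBP(KK/RR) replicate 4, and was at -0.0083 with the length and GC trend removed.

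The 4 Argonaute genes were all negative, with a median of -0.29 that became -0.12 with the length and GC trend removed. Their median transcript length was 10514 bases, against 2717 for all tested members. Eif2c3 (Ago3) measured 10.1, 12.4 and 10.5 CPM in libraries with wild-type KBP and 9.95, 8.33 and 8.14 CPM in those with KBP(KK/RR) (log2 fold change -0.32, SE 0.10, edgeR adjusted p = 0.0655), with every KBP(KK/RR) library below every wild-type KBP library. Without KBP(KK/RR) replicate 4 (log2 fold change -0.43, edgeR adjusted p = 0.0135) it passed the threshold, as it did without wild-type KBP replicate 1 (-0.38, 0.0417). It lay further from the threshold without KBP(KK/RR) replicate 6 (-0.27, 0.304), and likewise when wild-type KBP replicate 2 was left out (-0.22, 0.365). With the length and GC trend removed its log2 fold change was -0.15 (adjusted p = 0.313). Eif2c2, the slicing Argonaute Ago2, measured 150.1, 185 and 177 CPM with wild-type KBP and 169, 137 and 119.98 CPM with KBP(KK/RR) (log2 fold change -0.26, SE 0.17, edgeR adjusted p = 0.486), with overlapping groups. The value for Eif2c2 was -0.41 without KBP(KK/RR) replicate 4, -0.15 without KBP(KK/RR) replicate 6 and -0.09 with the trend removed. Eif2c1 and Eif2c4 had -0.03 and -0.35.

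Pairs of genes for the same factor were compared per length, and the groups' ratios overlapped in 6 of 9 pairs. Besides the pairs of Eif2s3y and Eef1a2, the exception was Eif4e2, a cap-binding relative that represses translation, whose level relative to Eif4e was 140.4, 137 and 136% with wild-type KBP and 131, 135 and 132% with KBP(KK/RR). The level of Eif4a2 relative to Eif4a1 was 15.3, 15.4 and 13.3% with wild-type KBP and 13.9, 13.5 and 13.1% with KBP(KK/RR). Eif5a2 was at or under 0.436% of Eif5a in every library. These ratios have no test of their own.

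Transcript length moved with the log2 fold changes. Across the 64 members the Spearman correlation of length with log2 fold change was -0.59, and across 14205 tested genes with a length it was -0.21, as a description over genes of the same libraries. Of 21 members under 2000 bases, 19 were positive (median 0.08), and of 24 members of 2000 to 4000 bases, 21 were positive (0.05). Of 19 members over 4000 bases, 6 were positive (-0.04). These 19 include the 4 Argonaute genes, all negative. In the same classes of all genes, 2182 of 3658, 3112 of 5746 and 1709 of 4801 were positive, with medians of 0.03, 0.01 and -0.04.

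With the length and GC trend taken out, the correlation was -0.31 across the members and -0.02 across all genes. The members' median was then 0.04, 45 of 64 were positive, 15 had an unadjusted p under 0.05, and 2 were called (Eif3f and Eef1a2). Of all 14340 genes, 7231 were then positive, 2756 had an unadjusted p under 0.05 and 738 were called. Values of Eif1, Eif3e and Eef1a1 became 0.07, 0.06 and 0.05. The part that length or RNA quality has in the group difference was not tested.

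**Figure D5:**
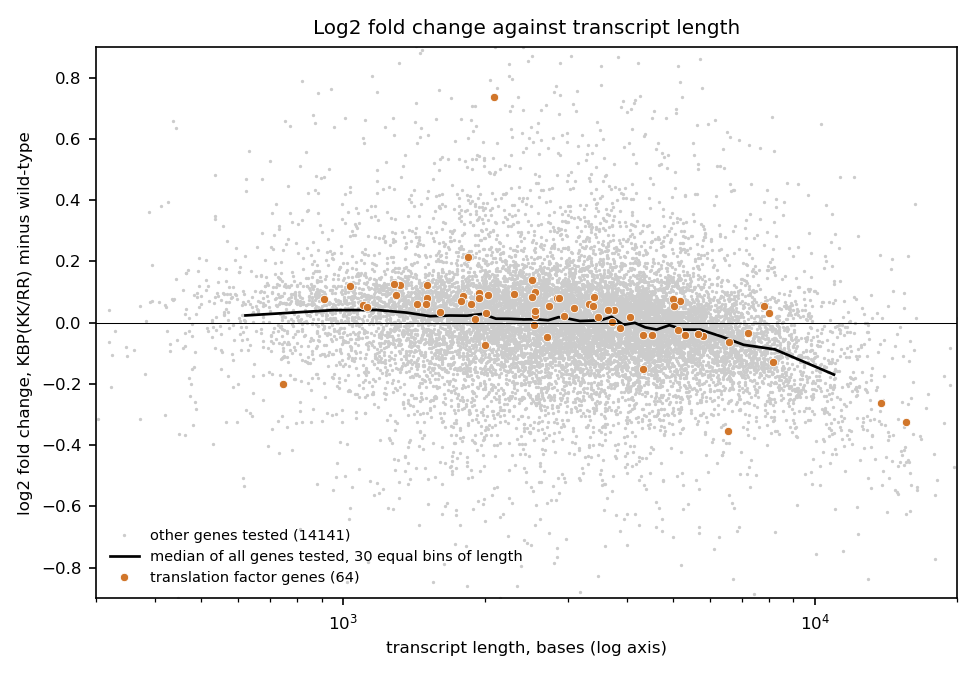
Log2 fold change (y axis) against the length of the longest annotated transcript (x axis, bases, log scale) for all tested genes with a length (grey) and the 64 members (orange), with the median of all genes in 30 bins as a line. Members under 2000 bases lie mostly above 0, and 13 of the 19 over 4000 bases lie below it. Of all genes 134, with 0 members among them, fall outside the axes.

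Some members have close copies in the genome, which can take or lend reads. Of the 64 tested, 10 share at least 20% of their 50-base words with other annotated genes, namely Eef1a1, Eef1g, Eif1, Eif2s2, Eif2s3x, Eif3e, Eif3h, Eif3m, Eif4a1 and Eif4a3. Their median log2 fold change was 0.08, against 0.04 for the 31 members that share none. The transcripts of the 10 are 1283 to 3647 bases long, and all members under 2000 bases also had a median of 0.08. The part of shared words or of length in this difference was not tested. Exons of 11 members are overlapped by another gene on the same strand and those of 16 on the opposite strand, and whether counting used strand is not given in the sources used here.

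Genes that act with these factors were taken from 7 lists by function, with 3.12% of all tested genes called. Of 10 genes for termination and ribosome recycling, 0 were called and 10 were positive. Mcts1, a recycling factor, had the smallest p (log2 fold change 0.15, SE 0.05, edgeR adjusted p = 0.118). Of 14 poly(A)-binding and cap regulators 0 were called, with Paip2b, an inhibitor of poly(A)-binding protein, nearest (log2 fold change 0.12, SE 0.04, edgeR adjusted p = 0.116). Of 8 initiation helpers 0 were called. The list of 7 hypusine and diphthamide enzymes held 0 calls, with Dph5 nearest (log2 fold change 0.17, SE 0.07, edgeR adjusted p = 0.199), as did that of 8 mitochondrial translation factors, with the release factor gene Mtrf1 nearest (log2 fold change 0.13, SE 0.06, edgeR adjusted p = 0.280).

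The few calls lay in the list of the eIF2 phosphatase and stress response and in that of mTORC1. Of 10 genes for the eIF2 phosphatase and the stress response to eIF2 phosphorylation, 1 rose and 1 fell, where 3.12% of all tested genes were called. Lists of 10 genes are too short to set such counts against that share. Gcn1l1, the ribosome-bound protein GCN1 that activates GCN2, measured 418, 453 and 445 CPM in libraries with wild-type KBP and 390.2, 389.7 and 368 CPM in those with KBP(KK/RR) and fell (log2 fold change -0.20, SE 0.04, edgeR adjusted p = 0.00817). Impact, which competes with GCN2 for GCN1, measured 153, 152 and 152 CPM in libraries with wild-type KBP and 173, 162 and 173 CPM in those with KBP(KK/RR) and rose (log2 fold change 0.16, SE 0.04, edgeR adjusted p = 0.0354). In both genes the groups did not overlap. The kinase GCN2 itself (Eif2ak4) measured 34.9, 36.8 and 35.2 CPM with wild-type KBP and 34.5, 36.0 and 33.6 CPM with KBP(KK/RR), with overlapping groups.

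The call of Gcn1l1, whose transcript is 8555 bases long, was lost with the length and GC trend removed (log2 fold change -0.04, edgeR adjusted p = 0.565). Leaving out KBP(KK/RR) replicate 6 (adjusted p = 0.0960) or wild-type KBP replicate 2 (0.0886) also ended it. The call of Impact ended when KBP(KK/RR) replicate 6 was left out (0.188), and likewise for each replicate of wild-type KBP, whether 1 (0.0704), 2 (0.140) or 3 (0.0739). With the length and GC trend removed Impact kept its call (log2 fold change 0.12, edgeR adjusted p = 0.0285). DESeq2, with all libraries, called both Impact (adjusted p = 0.0392) and Gcn1l1 (adjusted p = 0.00339).

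Of 10 genes of mTORC1 and the S6 kinases, 1 fell. Tsc2, a brake on mTORC1, measured 161, 169 and 162 CPM in libraries with wild-type KBP and 148, 152 and 143 CPM in those with KBP(KK/RR) (log2 fold change -0.15, SE 0.04, edgeR adjusted p = 0.0451), and the groups did not overlap. DESeq2 gave Tsc2 an adjusted p of 0.0586, and with the length and GC trend removed its log2 fold change was -0.08 (edgeR adjusted p = 0.157). Leaving out KBP(KK/RR) replicate 5 or 6, or any 1 of the wild-type KBP replicates 1, 2 and 3, also ended this call, with adjusted p from 0.0579 to 0.269.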

How the data were processed

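Libraries were made from total RNA depleted of ribosomal RNA (RiboZero, ScriptSeq v2), per the labels' protocols. The submitters' processing notes name bcl2fastq, TopHat, HTSeq and DESeq2 without versions and the builds mm10 and GRCm38; the sources used here do not give the annotation, strand setting or filters. In the files deposited are whole-number read counts per gene symbol and a normalized signal, which by its values is the authors' count over a factor for each library: 100% of its values came out as whole reads (tolerance 0.01), with 0 that differed from the counts.

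Counts were tested as deposited with edgeR 4.0.16 (R 4.3.3; filterByExpr, TMM, robust quasi-likelihood fit, glmQLFTest, group as the term), and p-values were adjusted by Benjamini-Hochberg over all 14340 genes. SE is the absolute log2 fold change over the square root of F. Alternatives were DESeq2 1.42.0, limma 3.58.1 on log2 of the signal plus 1, other scalings and filters, a threshold of 0.1, a length and GC trend removed by splines with 5 degrees of freedom, and each library left out. The counts of unadjusted p and of positive values, and the reads recovered from the signal, were added after seeing the data.

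In simulated counts for the same comparison (14243 genes, 50 changed per fold), the procedure found 4% of genes changed 1.1-fold, 44% at 1.2-fold, 74% at 1.5-fold and 92% at 2-fold. It called 20 unchanged genes there, and 6 when nothing was changed. The changed genes were drawn at random from all tested genes. The median level was 22.1 CPM for all tested genes and 209 CPM for the members, so these rates are not those of the members.

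Transcript length, GC content, positions and 50-base words came from the longest GENCODE M21 transcript (GRCm38), and promoters from RefSeq, for 52 of 67 members. Genes were named by rule: in each role the highest level per kilobase and up to 2 with the smallest p, pairs for 1 factor, members not tested, and in each list the called genes or the 1 with the smallest p. Other members are given to complete their complex. For 1 list the gene named by this rule is not reported here; it stayed in the tests. Members and lists were chosen with earlier results of these data known.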

Additional observations from a re-analysis of the deposited data

How the results depend on the processing

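The count of members called higher, 0 with the settings used here, was 3 with upper-quartile scaling (Eif1, Eif2s3y and Eif3f), 1 with library totals (Eif2s3y), 3 with no filter on low counts (Eef1a2, Eif2s3y and Eif3f), 2 with the length and GC trend removed, 5 at an adjusted p under 0.1, and 0 to 1 with a library left out. Members called lower numbered 1 with no filter (Eif2c3), 1 at an adjusted p under 0.1, and 0 to 2 with a library left out. Over all genes the calls numbered 440 with upper-quartile scaling, 434 with library totals, 966 with no filter and 738 with the trend removed. They numbered 823 at an adjusted p under 0.1, and 122 to 767 with a library left out. The count of members with an unadjusted p under 0.05 ran from 8 to 22 with a library left out. The members' median log2 fold change was 0.0704 with upper-quartile scaling, which moved the median of all genes to 0.0158, 0.0364 with the trend removed, and 0.0324 to 0.0528 with a library left out.

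Values near 0 changed sign. Eif2s2 was at 0.0088 with upper-quartile scaling, and with the trend removed Eif2c1 was at 0.0337 and Eif4g1 at 0.011. With a library left out, Eif2b5 ran from -0.0015 to 0.0621, Eif2c1 from -0.0707 to 0.0106, Eif2s2 from -0.0407 to 0.0236 and Eif4e2 from -0.0025 to 0.0417. Tsc2 also lost its call with upper-quartile scaling, library totals or a minimum of 1 CPM in 3 libraries. The cause of these shifts was not tested. No paired analysis was possible because the groups share no replicate number (1 to 3 against 4 to 6).

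Genes of few counts, such as Eef1a2, Eif2c4 and Eif4e3, have wide intervals at this depth, and 3 libraries per group limit the rest.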
